A study of Mus musculus with 16 samples.

Results

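Interferon-stimulated genes are the genes that cells switch on when an interferon binds its receptor. Here they are 43 genes chosen by name, all found among the 24421 genes of the tumour organoid count tables. They were measured by polyA RNA sequencing in 16 libraries of C57BL/6 mouse organoids, which are 3-dimensional cultures. Lung-LMP1 (3 libraries) and LMP1 (2 libraries) are tumour organoids of the genotype Trp53-/-;Myc;sgCdkn2a; LMP1, abbreviated TMPL. Lung-Ctr (2 libraries) and Ctr (3 libraries) are tumour organoids of the genotype Trp53-/-;Myc;sgCdkn2a, abbreviated TMP, so the Trp53 deletion, Myc and the Cdkn2a guide are shared by all 10 tumour libraries. LMP1 is the latent membrane protein of Epstein-Barr virus, a constantly active signalling receptor found in nasopharyngeal carcinoma. The untreated normal groups are Normal_nasopha (nasopharynx organoids, 3 libraries) and Normal_lung (lung organoids, 3 libraries). Per the labels, the tumours grew in recipient mice that had received an orthotopic nasopharynx transplant. The labels give no age, no driver of the LMP1 or Myc transgene, and no statement that libraries of a group are separate tumours, mice or lines, so the p-values below measure the spread between these libraries.

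The labels do not settle what the Lung prefix means, because the description fields mark TMP as primary and TMPL as metastatic throughout, whereas the design text names primary and metastasized organoids for each genotype. Groups are therefore named by their titles. The tables hold no entry for the viral LMP1 transcript. Gene-level counts of Trp53 ranged from 81.8 to 109 CPM (a read count divided by the total of its library, on a common scale) in TMPL, 58.1 to 86.0 in TMP and 63.3 to 156 in the 3 normal columns deposited beside Ctr; the labels do not say which exons were removed, so this checks nothing about the deletion. Those 3 columns are headed as normal lung in a table named for normal nasopharynx, and are called the normal comparator here. Their log2 counts correlated at r = 0.981 to 0.982 with the Normal_nasopha library of the same number, at 0.949 to 0.957 with the others of that group, and at no more than 0.911 with Normal_lung. Sftpc, a lung marker, was at 134, 31.4 and 30.1 CPM in them. It was at 121.9, 28.7 and 26.4 CPM in Normal_nasopha and at 37317 CPM or more in Normal_lung. By these values the comparator matches Normal_nasopha and not Normal_lung. It is not treated as independent of Normal_nasopha. Total counts ran from 12535166 to 21737184 per library, and a count of 0 allows up to 3 counts, which is 0.138 to 0.239 CPM.

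In the textbook pathway, type I and type III interferons bind their receptors, Janus kinases phosphorylate STAT2, and it joins IRF9 in a complex that binds the interferon-stimulated response element of target promoters. Many of the products then block virus replication in the cell. Epithelial cells run the same pathway, and tumour cells can carry it at a high resting level without infection. The members were ordered by role. The RNA sensors are Ddx58 (RIG-I), Ifih1 (MDA5), Dhx58 (LGP2) and the Z-nucleic acid sensor Zbp1. The transcription factors are Irf1, Irf7, Irf9 and Stat2. The Ifit family (Ifit1, Ifit2, Ifit3, Ifit3b) binds viral RNA or blocks translation, and the Oas family (Oas1a, Oas2, Oas3, Oasl1, Oasl2) holds the synthases of the messenger that activates RNase L together with their inactive relatives. A set of 8 genes serves protein modification: Isg15 itself, its protease Usp18, the ligases Herc6, Trim25, Trim30a and Dtx3l, and the ADP-ribosyltransferases Parp9 and Parp14. The GTPases are Mx1, Mx2, Gbp2 and Gbp3. Other antiviral effectors are Rsad2 (viperin), the nucleotide kinase Cmpk2, the nuclease Isg20, the kinase Eif2ak2 (PKR), the tethering protein Bst2, Ifitm3 and Samd9l. Ifi44, Ifi35, Xaf1, Rtp4, Phf11d, Lgals3bp and Sp100 complete the list.

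The response element gives the members a sequence feature that was not used to choose them. Its core was searched as GAAA, then any 2 bases, then GAAA, on both strands, with overlapping matches allowed. RefSeq promoter windows (GRCm38.p6, 250 bases before to 50 after the start) were available for 34 of 43 members, and 16 of these held the core (47.1%), against 3.99% of all 27025 genes of that table. The core of the gamma-activated sequence, TTCNNNGAA, was present in 8 of 34 members (23.5%), against 9.55% of all genes. The 200 bases before the start are printed below for 5 members that hold the core there, with matches in capitals, to show how its number and spacing differ. These are Ifit1 chr19:34640689-34640888 (plus strand), Rsad2 chr12:26456453-26456652 (minus strand), Isg15 chr4:156200819-156201018 (minus strand), Ifit3 chr19:34583329-34583528 (plus strand) and Ifit3b chr19:34607757-34607956 (plus strand), each written along the gene's own strand.
Ifit1: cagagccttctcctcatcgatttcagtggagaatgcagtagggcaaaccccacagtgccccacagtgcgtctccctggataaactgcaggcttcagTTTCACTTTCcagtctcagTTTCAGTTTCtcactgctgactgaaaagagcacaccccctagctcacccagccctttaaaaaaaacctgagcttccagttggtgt
Rsad2: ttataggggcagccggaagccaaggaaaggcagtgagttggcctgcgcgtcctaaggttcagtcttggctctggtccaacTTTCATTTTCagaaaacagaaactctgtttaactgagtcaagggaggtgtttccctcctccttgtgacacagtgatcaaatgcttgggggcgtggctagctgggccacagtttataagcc
Isg15: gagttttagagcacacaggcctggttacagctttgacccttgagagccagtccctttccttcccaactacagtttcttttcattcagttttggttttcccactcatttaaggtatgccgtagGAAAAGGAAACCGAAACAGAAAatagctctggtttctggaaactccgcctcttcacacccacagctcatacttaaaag
Ifit3: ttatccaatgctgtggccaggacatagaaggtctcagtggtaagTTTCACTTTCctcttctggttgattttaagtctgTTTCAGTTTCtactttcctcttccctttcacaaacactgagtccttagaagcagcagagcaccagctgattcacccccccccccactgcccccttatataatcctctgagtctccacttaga
Ifit3b: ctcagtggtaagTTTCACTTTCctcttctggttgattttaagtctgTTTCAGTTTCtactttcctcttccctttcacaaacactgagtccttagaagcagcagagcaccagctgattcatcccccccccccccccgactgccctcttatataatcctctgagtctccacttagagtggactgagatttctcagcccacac

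Ifit1 had 2 matches, which begin 104 and 85 bases before its start, and Rsad2 had 1, 120 bases before. Isg15 had 3 overlapping matches, beginning 78, 72 and 66 bases before its start. Ifit3 and its neighbour Ifit3b share an unbroken run of 119 identical bases that contains both of their matches, which begin 156 and 122 bases before the start of Ifit3 and 188 and 154 bases before that of Ifit3b. These are near-identical copies, and the authors' counting could split reads between them, so their separate levels are uncertain. The other 5 windows belong to members that passed a test described below and hold no match in the 200 bases: Trim25 chr11:88999203-88999402 (plus strand), Oasl1 chr5:114923040-114923239 (plus strand), Phf11d chr14:59365491-59365690 (minus strand), Ddx58 chr4:40239826-40240025 (minus strand) and Dtx3l chr16:35939028-35939227 (minus strand).
Trim25: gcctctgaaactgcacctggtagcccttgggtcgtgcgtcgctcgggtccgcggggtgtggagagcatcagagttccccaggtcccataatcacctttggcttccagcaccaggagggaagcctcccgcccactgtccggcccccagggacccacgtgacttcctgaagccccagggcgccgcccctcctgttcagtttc
Oasl1: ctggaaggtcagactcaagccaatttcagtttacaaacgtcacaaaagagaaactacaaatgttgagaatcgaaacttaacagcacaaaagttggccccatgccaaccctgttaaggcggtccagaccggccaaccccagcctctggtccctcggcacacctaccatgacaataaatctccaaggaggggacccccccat
Phf11d: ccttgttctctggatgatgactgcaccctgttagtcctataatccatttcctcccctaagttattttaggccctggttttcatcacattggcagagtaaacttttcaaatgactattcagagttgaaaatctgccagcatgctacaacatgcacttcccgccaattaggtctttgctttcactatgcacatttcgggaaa
Ddx58: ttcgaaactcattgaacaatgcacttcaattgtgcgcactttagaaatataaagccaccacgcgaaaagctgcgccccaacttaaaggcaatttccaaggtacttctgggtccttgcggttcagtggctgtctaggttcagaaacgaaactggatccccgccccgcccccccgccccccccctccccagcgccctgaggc
Dtx3l: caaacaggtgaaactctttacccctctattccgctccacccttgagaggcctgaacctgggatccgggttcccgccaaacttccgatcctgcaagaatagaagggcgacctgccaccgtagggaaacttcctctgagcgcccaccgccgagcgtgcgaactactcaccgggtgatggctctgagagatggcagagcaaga

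For Ddx58 a match lies in the 50 bases after the start. A missing match says only that these letters are not in this window. Isg15, Ifit3 and Ifit3b were added for display after their values were seen.

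The main pattern in the members was that they moved together from library to library, also between libraries of 1 group. The mean of the 43 members on the log2(CPM + 0.5) scale was 2.74, 5.28 and 2.29 in the Lung-LMP1 libraries, in the order of their replicate numbers, and 6.18 and 4.76 in Lung-Ctr. It was 1.915 and 1.918 in LMP1 and 5.38, 5.87 and 2.41 in Ctr. Lung-LMP1 replicate 2 therefore lay with Lung-Ctr and not with its own group, and Ctr replicate 3 lay with the TMPL libraries. The normal comparator had 2.46, 3.80 and 2.46. In bulk RNA, fewer cells that express these genes and less RNA per cell cannot be told apart.

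**Figure D1:**
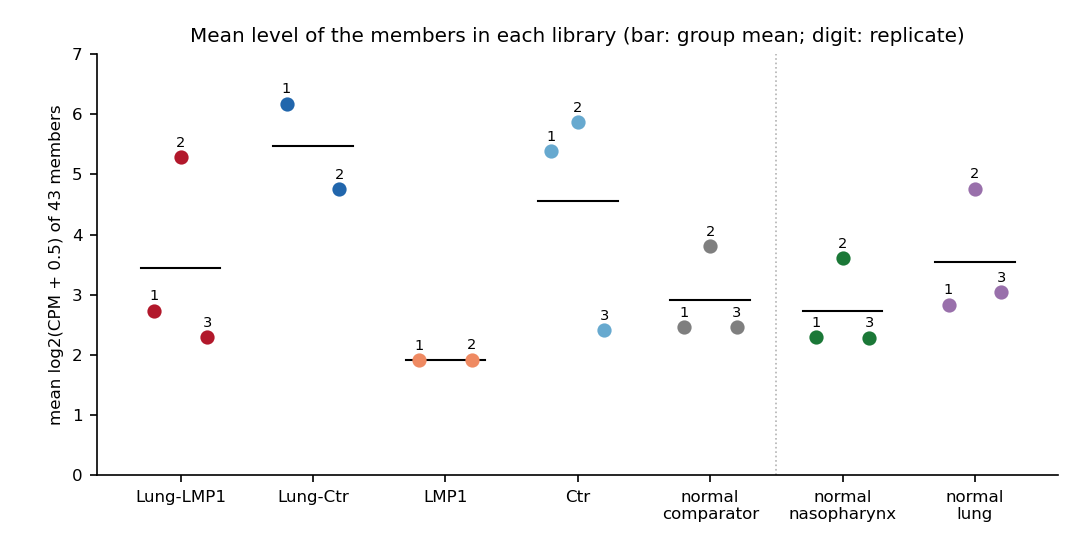
Mean log2(CPM + 0.5) of the 43 members (vertical axis) in each library, by group (horizontal axis); a point is 1 library with its replicate number, a bar the group mean, and the dotted line separates the table of normal organoids, whose gene annotation differs. Both LMP1 libraries lie at 1.92, while Lung-LMP1 runs from 2.29 to 5.28 and Ctr from 2.41 to 5.87.

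Isg15, an interferon-induced ubiquitin-like modifier, shows the pattern in 1 gene. It had 1.29, 16.8 and 0.479 CPM in Lung-LMP1, against 36.5 and 12.3 in Lung-Ctr. In LMP1 it had 0.443 and 0.135 CPM, against 8.15, 31.0 and 0.696 in Ctr. Lung-LMP1 replicate 2 was above the lower Lung-Ctr library, so those groups overlapped, while both LMP1 libraries were below all 3 Ctr libraries, of which replicate 3 came closest to them.

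All 43 members were higher in Lung-LMP1 replicate 2 than in both other libraries of that group, and all 43 were lower in Ctr replicate 3 than in both other Ctr libraries. The median ratio over members was 5.20 for Lung-LMP1 replicate 2 over replicate 1 and 6.55 over replicate 3. It was 6.40 for Ctr replicate 1 over replicate 3 and 11.4 for Ctr replicate 2 over replicate 3. Of the members, 41 of 43 (95.3%) were over 2-fold higher in Ctr replicate 1 than in replicate 3, against 10.8% of 14096 genes. In Lung-Ctr 40 of 43 members were higher in replicate 1 than in replicate 2, with a median ratio of 2.46. The 2 LMP1 libraries did not separate in this way, with a median ratio of 1.02 and 22 of 43 members higher in replicate 1.

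**Figure D2:**
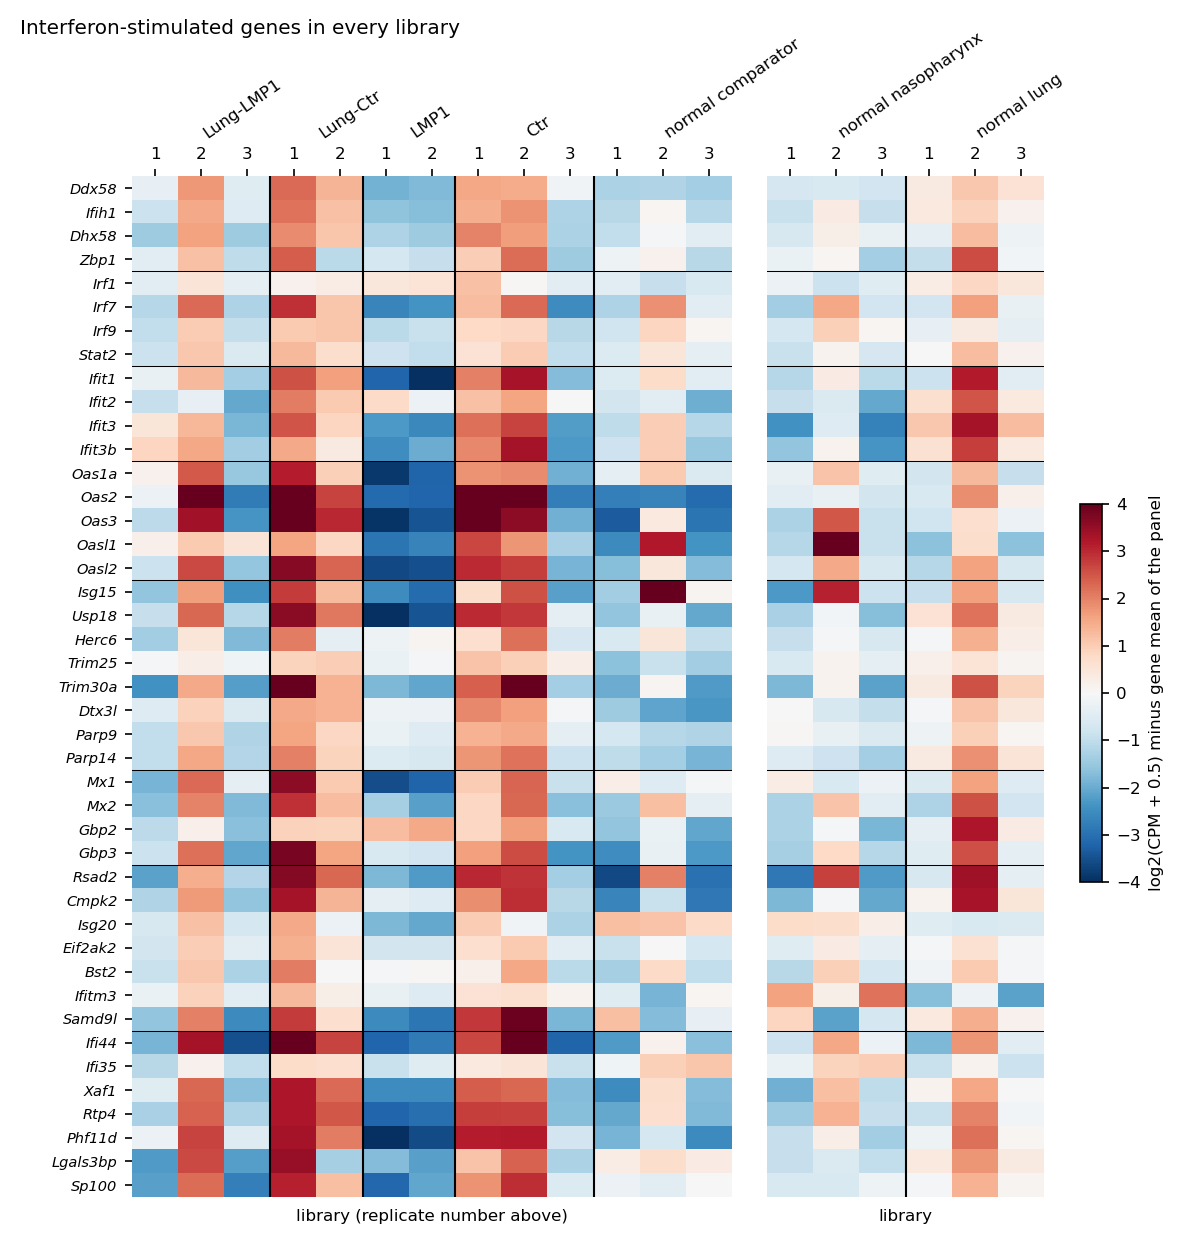
Each row is a member, ordered by role (lines separate roles), and each column 1 library with its replicate number; colour is log2(CPM + 0.5) minus the gene's mean over the libraries of its panel. In Lung-LMP1 the column of replicate 2, and in Ctr the columns of replicates 1 and 2, are high for nearly every row, while both LMP1 columns are low for most rows.

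The spread was of a size that few other genes had. The SD within the tumour groups had a median of 1.69 on the log2 scale over members and 0.324 over all tested genes, and 36 of 43 members were among the 10% of genes of highest SD. As a description, each member's deviations from its group means over the 10 tumour libraries were correlated with the mean of the other members. Pearson's r was over 0.8 for 42 of 43 members (median 0.966, lowest 0.697 for Irf1), and for 3.96% of 13417 other genes. These points share their library, its depth and its normalisation, and no p is given. The highest library exceeded the lowest by 2.62-fold for Trim25 and by 360-fold for Ifi44 (log2(CPM + 0.5) scale), with a median of 38.8-fold. The lowest library was one of the LMP1 pair for 25 members and Lung-LMP1 replicate 3 for 10, and the highest was Lung-Ctr replicate 1 for 29.

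Oas2, Oas3 and Ifi44 had the widest range. Oas2 had 4.33, 123 and 0.319 CPM in Lung-LMP1, against 171 and 36.9 CPM in Lung-Ctr. It had 0.166 and 0.135 CPM in LMP1, against 99.4, 118 and 0.348 in Ctr. The lowest Ctr library was thus close to the LMP1 pair, and the lowest Lung-LMP1 library was below it. Irf1, which interferon gamma and NF-kB also induce, varied least with the rest: it had 37.4, 71.5 and 39.2 CPM in Lung-LMP1, 56.2 and 61.8 in Lung-Ctr, 69.2 and 73.8 in LMP1, and 113, 52.1 and 37.1 in Ctr.

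Genes outside the 43 that interferon is known to induce followed the same libraries. Of 45 tested genes from a list of 50, 39 had an r over 0.8 with the members, led by Mnda, Igtp and Gbp7. Nt5c3 (r = -0.02) and Ifitm2 (r = 0.21) did not follow them. Among receptors and Janus kinase signalling genes the kinase Jak2 did (r = 0.926). Of 18 tested genes of nucleic acid sensing, 5 had an r over 0.8: Adar, Trex1, Tlr3, Nlrc5 and Tmem173 (STING).

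Interferon transcripts themselves were near or under the count floor. None of 11 ligand genes passed the low-count filter in the tumour libraries, and 6 to 10 of the 11 were at 0 counts in each of these libraries. Ifnb1, the first type I interferon of many cells, was highest in Ctr replicate 2 at 0.36 CPM, and Ifnl2, a type III interferon, in Lung-Ctr replicate 2 at 0.40 CPM. The summed ligand level was 0.203 to 0.490 CPM in Lung-LMP1, 0.864 to 1.05 in Lung-Ctr, 0.406 to 0.498 in LMP1 and 0.278 to 0.514 in Ctr. Basal keratin levels also differed between libraries of 1 group: Krt5 was at 1761, 571 and 1348 CPM in Lung-LMP1, at 19.8 and 1993 CPM in Lung-Ctr and at 680, 441 and 1823 CPM in Ctr. In each of these groups the library with the highest mean of the members was the one with the lowest Krt5. Krt8, a keratin of simple epithelium, was highest in the same libraries, at 252, 1080 and 619 CPM in Lung-LMP1, 1479 and 120 CPM in Lung-Ctr and 354, 477 and 322 CPM in Ctr. Over the 10 tumour libraries the deviations of the 7 epithelial markers from their group means correlated with those of the members at r = -0.772 (Krt14) to 0.537 (Krt18). Krt5 and Krt8 were named after their values were seen. Both LMP1 libraries had less Krt5 than any other tumour library, at 4.54 and 12.7 CPM. They also had the lowest means of the members, 1.915 and 1.918. In Ctr, Krt14 was lowest and Krt18 highest in replicate 1, whereas the mean of the members was highest in replicate 2. The part of keratin levels in the spread was not tested. Immune cell markers were low: Cd3d, Ms4a1, Siglech and Nkg7 were at 0 in all 10 tumour libraries, and Ptprc, the pan-leukocyte marker, was at no more than 0.22 CPM. Cd68 was the most abundant of the 12, at 7.10 to 40.2 CPM.

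LMP1 against Ctr compares the genotypes without the prefix. Of 43 members, 6 fell in LMP1 and none rose (edgeR quasi-likelihood test, adjusted p under 0.05); 41 had a lower mean (50.7% of all genes). Of all 13460 genes tested, 9.06% fell and 7.36% rose, so the share of members called lower (6 of 43) was not far above that background. The median log2 fold change was -3.42 over members and -0.01 over all genes. An unadjusted p under 0.05 was reached by 26 members, against 33.6% of all genes. The LMP1 range lay wholly below the Ctr range for 25 members, against 26.9% of genes.

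The 6 genes that fell were Oasl1, Phf11d, Usp18, Trim25, Ifit1 and Ddx58. Oasl1 (chr5:114923240-114937915), an Oas relative without synthase activity, had 0.664 and 0.8796 CPM in LMP1, against 55.4, 29.4 and 3.13 CPM in Ctr. Its log2 fold change was -5.25 (SE 1.12, edgeR adjusted p = 0.0184). Phf11d (chr14:59347407-59365470), a zinc finger gene, had 0.0553 and 0.338 CPM in LMP1, against 88.1, 90.6 and 5.43 in Ctr, a log2 fold change of -8.31 (SE 1.98, edgeR adjusted p = 0.0262). The LMP1 libraries hold 1 and 5 counts of it, so the size of this fold change is uncertain.

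Usp18 (chr6:121245906-121270917), the protease that removes ISG15 and damps type I interferon receptor signalling, had 0.0553 and 0.338 CPM in LMP1, against 72.1, 64.3 and 6.61 in Ctr (log2 fold change -7.95, SE 1.94, edgeR adjusted p = 0.0280). Trim25 (chr11:88999376-89020293), the ubiquitin ligase that acts with RIG-I, had 163 and 185 CPM in LMP1, against 426, 378 and 232 in Ctr. Its log2 fold change of -1.01 (SE 0.25, edgeR adjusted p = 0.0300) was the smallest of the 6 but came from the most abundant gene. Both genes had separate ranges in the 2 groups, and in both Ctr replicate 3 was the Ctr library nearest to LMP1.

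Ifit1 (chr19:34640871-34650009), which binds viral RNA that lacks cap methylation, had 0.387 and 0 CPM in LMP1, against 32.1, 79.4 and 1.95 in Ctr. Its log2 fold change was -7.47 (SE 1.90, edgeR adjusted p = 0.0319). Ddx58 (chr4:40203773-40239828), the RIG-I sensor, had 13.6 and 15.0 CPM in LMP1, against 154, 148 and 46.8 in Ctr, a log2 fold change of -3.04 (SE 0.83, edgeR adjusted p = 0.0387). Coordinates are those of GENCODE on GRCm38.

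**Figure D3:**
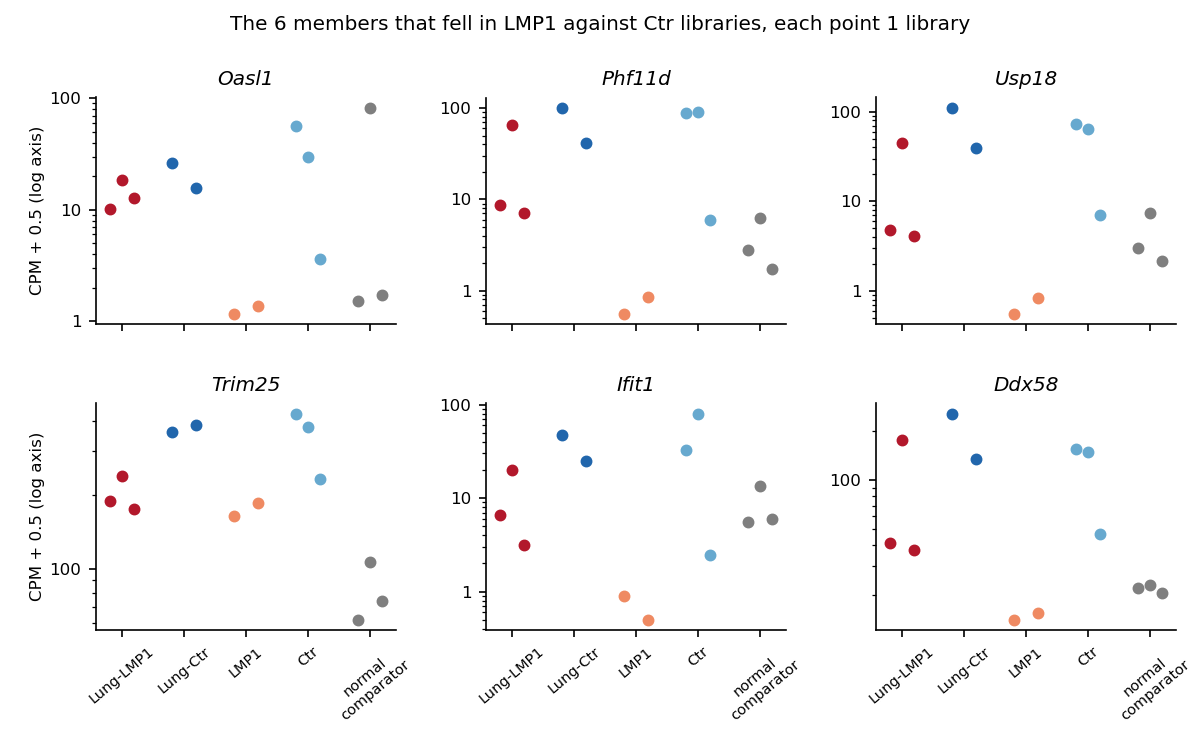
CPM + 0.5 on log axes for the 6 members that fell in LMP1 against Ctr, 1 point per library, in the 4 tumour groups and the normal comparator. The LMP1 points lie below all Ctr points in each panel, and the lowest Ctr point (replicate 3) lies closest to them, as for Ddx58 with 13.6 and 15.0 CPM in LMP1, against 46.8 CPM in Ctr replicate 3.

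By role, 1 of 4 RNA sensors, 1 of 4 Ifit genes, 1 of 5 Oas genes, 2 of 8 modification genes and 1 of 7 of the last group fell, and 0 of 4 transcription factors, 0 of 4 GTPases and 0 of 7 other effectors. The median log2 fold change was -6.23 for the Ifit genes and -6.37 for the Oas genes, and the ranges of all 5 Oas genes were separate. Gbp2 and Irf1 were the 2 members with a higher fitted mean in LMP1, and neither passed the test. The GTPase Gbp2 had 8.69 and 10.5 CPM in LMP1, against 6.39, 11.7 and 2.02 in Ctr. Ifit3b had 3 counts in LMP1 and 519 in Ctr, a depth-scaled ratio of Ctr over LMP1 of 136 (95% interval 46.2 to 660, counting error only).

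The count of 6 depended on single libraries. It was 0 without either LMP1 replicate 1 or LMP1 replicate 2, 2 without Ctr replicate 1, 3 without Ctr replicate 2, 16 without Ctr replicate 3 (6.5% of genes called lower), and 15 without Lung-LMP1 replicate 2 (8.56%), which enters through the shared estimate of spread. DESeq2 called 24 members, all lower. The authors' deposited table for this comparison called 35 members lower and 0 higher, against 15.7% of its genes called lower. Here and below, counts from DESeq2 and from fits without 1 library have no background unless a share of all genes is printed beside them. Lung-LMP1 replicate 2 and Ctr replicate 3 were seen to stand apart in these same members. A higher count without either follows in part from that, also beside a share of all genes, and is no separate support.

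Other pathway genes that passed the same test in LMP1 against Ctr were few. The interferon lambda receptor Ifnlr1 fell (log2 fold change -2.68, SE 0.51, adjusted p = 0.0131), and Socs3, a feedback inhibitor of Janus kinase signalling, rose (1.80, SE 0.36, edgeR adjusted p = 0.0151); the other 13 of 15 receptor and signalling genes did not pass. Of 18 tested sensing genes, Mb21d1 (cGAS) and Irf5 fell and Rnaseh2c rose. Of 45 tested other induced genes, Cxcl10, Nt5c3, Psmb9, Oas1g and Tdrd7 fell and Ifitm2 rose, and 44 had a lower mean, with a median log2 fold change of -2.67. The chemokine Cxcl10 had 1.33 and 1.56 CPM in LMP1, against 59.8, 47.8 and 22.1 in Ctr (-4.92, SE 0.91, edgeR adjusted p = 0.0122). The immunoproteasome subunit Psmb9 had 0.332 and 0.8796 CPM in LMP1, against 8.15, 7.06 and 3.06 in Ctr, and Oas1g had 0 counts in both LMP1 libraries.

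Epithelial markers moved with this comparison. Of 7, Epcam, Cdh1, Krt5, Krt14 and Trp63 fell; the summed level of the 7 was 887 to 1335 CPM in LMP1, against 2467 to 4652 in Ctr, with none at 0. Fibroblast markers summed to 83.4 and 40.8 CPM in LMP1, against 1.18, 109.8 and 0.557 in Ctr, mostly from Col3a1, and none of the 5 tested passed. In the Ctr libraries with these fibroblast sums, the mean log2 level of the members was 5.38, 5.87 and 2.41, in the same order. The part of both marker lists in the difference between LMP1 and Ctr was not tested.

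Lung-LMP1 against Lung-Ctr compares the same genotypes with the prefix. No member and no gene passed the edgeR test (0.0% of 13460 genes); 4 members and 17.1% of genes had an unadjusted p under 0.05, and DESeq2 called 2 members, both lower. All 43 members had a lower mean in Lung-LMP1, against 53.2% of genes, with a median log2 fold change of -1.36. Epithelial markers did not separate these groups, with sums of 4974 to 5303 CPM in Lung-LMP1 and 4578 to 5492 CPM in Lung-Ctr.

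The members of largest log2 fold change among those with a mean of at least 3 on the log2 CPM scale were Rsad2, Ifit2 and Cmpk2, and none passed. Rsad2, the radical SAM enzyme viperin, had 2.51, 35.8 and 5.42 CPM in Lung-LMP1, against 169 and 64.8 in Lung-Ctr (log2 fold change -2.95, SE 1.26, edgeR adjusted p = 0.280). Ifit2 had 3.18, 5.02 and 1.20 CPM in Lung-LMP1, against 28.6 and 13.95 in Lung-Ctr (-2.70, SE 0.67, edgeR adjusted p = 0.130). Both genes had separate ranges. Cmpk2 had 2.78, 24.3 and 2.07 CPM in Lung-LMP1, against 75.1 and 19.2 in Lung-Ctr, and its ranges overlapped (-2.22, SE 1.23, edgeR adjusted p = 0.386).

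Without Lung-LMP1 replicate 2 the median log2 fold change of the members was -3.20 and 35 members had an unadjusted p under 0.05 (19.2% of genes in that fit), but still no member passed after adjustment, the smallest adjusted p being 0.130. Lung-LMP1 replicate 2 was singled out by the members' own values, so the larger difference without it is no separate support. Without Lung-Ctr replicate 1 the median was -0.67. The authors' deposited table called 2 members lower and 0 higher, against 1.17% and 2.25% of its genes.

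**Figure D4:**
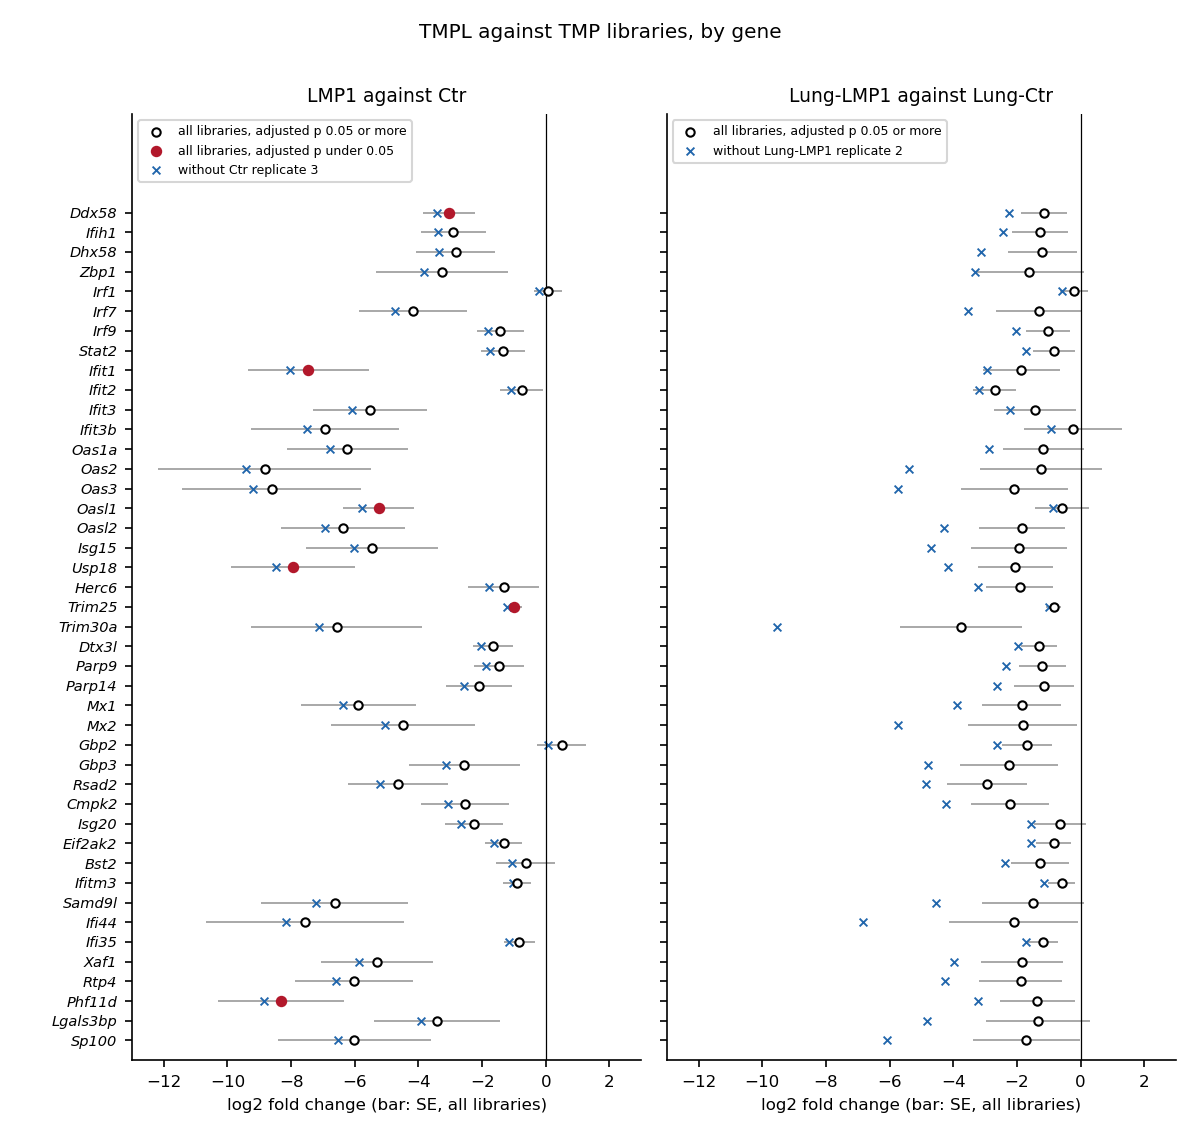
Log2 fold change of each member (rows, ordered by role), with SE bars. The left panel is LMP1 against Ctr and the right panel Lung-LMP1 against Lung-Ctr. Filled points passed an edgeR adjusted p of 0.05. Crosses give the value without the library that stands apart in its group by these same members. On the left 6 points are filled, and on the right none; the right median is -1.36 with all libraries and -3.20 without Lung-LMP1 replicate 2.

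TMPL against TMP joins the 5 libraries of each genotype with a term for the prefix. Trim25, Rsad2 and Dtx3l fell and no member rose, so 3 of 43 were called, against 5.13% of all genes called lower and 7.22% called higher. All 43 members had a lower fitted mean, against 53.7% of genes, with a median log2 fold change of -2.40, and 24 had an unadjusted p under 0.05 (30.3% of genes). No member had separate ranges, against 5.1% of genes lower and 4.78% higher. Trim25 had 188, 237 and 174 CPM in Lung-LMP1 and 163 and 185 in LMP1, against 360 and 384 in Lung-Ctr and 426, 378 and 232 in Ctr (log2 fold change -0.93, SE 0.17, edgeR adjusted p = 0.0113). Only Lung-LMP1 replicate 2 exceeded the lowest TMP library, by 237 to 232 CPM.

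Rsad2 had 3.32 and 2.30 CPM in LMP1, beside its Lung-LMP1 values above, against 107, 98.5 and 4.66 in Ctr (-3.76, SE 1.04, edgeR adjusted p = 0.0453). Dtx3l, a ubiquitin ligase that acts with PARP9, had 21.7, 59.2 and 20.7 CPM in Lung-LMP1 and 27.0 and 26.5 in LMP1, against 90.7 and 82.3 in Lung-Ctr and 120, 98.9 and 30.3 in Ctr (-1.48, SE 0.41, edgeR adjusted p = 0.0474). For Rsad2 the overlap came from Ctr replicate 3, which was below Lung-LMP1 replicates 2 and 3. For Dtx3l it came from Ctr replicate 3, which was below Lung-LMP1 replicate 2. The Dtx3l and Parp9 genes overlap on opposite strands (chr16:35926511-35939151 and chr16:35938470-35972605), and the sources do not say whether strand was used in counting, so reads of the shared part cannot be assigned.

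This count was also set by single libraries: 30 members fell without Lung-LMP1 replicate 2 (5.68% of genes), 5 without Ctr replicate 3, and 0 without either LMP1 library, while leaving out Ctr replicate 1, Ctr replicate 2, Lung-Ctr replicate 1, Lung-LMP1 replicate 1 or Lung-LMP1 replicate 3 left 1. Lung-LMP1 replicate 2 was singled out by the members' own values, so the count of 30 beside 5.68% is no separate support. DESeq2 called 26, all lower. Of 45 other induced genes tested, 6 fell and Ifitm2 rose, with a median log2 fold change of -2.23. Those with the smallest adjusted p that fell were Gbp5, Ube2l6, which charges ISG15, Cxcl10 and the immunoproteasome subunit Psmb8.

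The difference between genotypes was compared between the 2 settings of the prefix by an interaction test. No member passed (edgeR; 0.892% of all genes did), 5 had an unadjusted p under 0.05, against 15.6% of genes, and DESeq2 called 2. The median interaction was 1.89 log2 units and was -0.06 without Lung-LMP1 replicate 2. The 3 largest values among members of sufficient level were those of Phf11d (6.95, SE 2.28, edgeR adjusted p = 0.195), Oas3 (6.53, SE 3.20, edgeR adjusted p = 0.373) and Usp18 (5.90, SE 2.23, edgeR adjusted p = 0.255).

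Lung-LMP1 against LMP1 compares the prefix within TMPL. Oasl1 and Phf11d rose in Lung-LMP1 and no member fell, 2 of 43, against 6.17% of all genes called higher and 3.95% called lower. Oasl1 had 9.62, 17.9 and 12.2 CPM in Lung-LMP1, against 0.664 and 0.8796 in LMP1 (log2 fold change 4.22, SE 1.07, edgeR adjusted p = 0.0416). Phf11d had 8.13, 64.9 and 6.54 CPM in Lung-LMP1, against 0.0553 and 0.338 in LMP1 (7.22, SE 1.93, edgeR adjusted p = 0.0485). Every Lung-LMP1 library was above both LMP1 libraries in these 2 genes.

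Oas3 had the largest log2 fold change among members with a mean of at least 3 on the log2 CPM scale, with 3.93, 94.1 and 1.28 CPM in Lung-LMP1, against 0.111 and 0.338 in LMP1 (7.34, SE 2.74, edgeR adjusted p = 0.123). Phf11d came next, and then Usp18, with 4.33, 44.0 and 3.59 CPM in Lung-LMP1, against 0.0553 and 0.338 in LMP1 (6.61, SE 1.88, edgeR adjusted p = 0.0593). Oas3 and Usp18 did not pass, although every Lung-LMP1 library was above both LMP1 libraries. The median over members was 2.69 and was 0.46 without Lung-LMP1 replicate 2, when no member passed. No member passed either without Lung-LMP1 replicate 1, Lung-LMP1 replicate 3, Ctr replicate 2 or either LMP1 library; 1 passed without Ctr replicate 1 or either Lung-Ctr library, and 5 without Ctr replicate 3. The Lung-LMP1 range lay wholly above the LMP1 range for 19 members (20.4% of genes) and wholly below it for Gbp2 and Ifit2 (35.5% of genes). Gbp2 had 1.35, 3.98 and 0.718 CPM in Lung-LMP1, against 8.69 and 10.5 in LMP1. The authors' deposited table called 20 members higher and 1 lower, against 14.4% and 11.8% of its genes. Epithelial markers again separated these groups, with 5 of 7 higher in Lung-LMP1 and sums of 4974 to 5303 CPM, against 887 to 1335 in LMP1. Fibroblast markers summed to 0.406 to 1.52 CPM in Lung-LMP1, against 40.8 and 83.4 in LMP1, and the part of both lists in the difference was not tested. Among pathway genes, Ifnlr1 (2.19) and Mb21d1 (2.04) rose and Ifnar2 (-1.39), Socs3 (-1.66) and Ifitm2 (-1.01) fell in Lung-LMP1, as log2 fold changes.

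Lung-Ctr against Ctr compares the prefix within TMP. No member passed in edgeR or DESeq2 and none had an unadjusted p under 0.05, against 5.33% of 13460 genes, of which 0.0% passed. The median log2 fold change was 0.65 with all libraries, 0.22 without Ctr replicate 3 and -0.16 without Lung-Ctr replicate 1. Among members with a mean of at least 3 on the log2 CPM scale, Lgals3bp, a secreted glycoprotein, had the largest log2 fold change, with 275 and 9.37 CPM in Lung-Ctr, against 54.7, 127 and 9.81 in Ctr (1.23, SE 1.65, edgeR adjusted p = 0.936). Irf7, the amplifier of interferon gene transcription, had 88.0 and 24.6 CPM in Lung-Ctr, against 27.0, 55.7 and 1.53 in Ctr (1.07, SE 1.33, edgeR adjusted p = 0.933). Oasl2 had 253 and 103 CPM in Lung-Ctr, against 159, 138 and 5.08 in Ctr (0.89, SE 1.36, edgeR adjusted p = 0.946). All 3 genes had overlapping ranges.

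Each tumour group was then set against the normal comparator in 1 fit of 13 libraries. The 4 comparisons share the 3 comparator libraries. In Lung-LMP1 4 members rose and none fell (14.6% and 17.4% of 14096 genes), and in Lung-Ctr 10 rose and none fell (13.2% and 14.2%). In LMP1 3 rose and 3 fell (13.7% and 14.5%), and in Ctr 10 rose and none fell (16.1% and 19.0%). The median log2 fold change was 0.85 for Lung-LMP1, 2.33 for Lung-Ctr, -2.11 for LMP1 and 2.01 for Ctr. The 2 lists of 10 name the same genes: Trim25, Dtx3l, Ddx58, Phf11d, Oas2, Parp14, Cmpk2, Parp9, Ifit2 and Usp18. Trim25 and Dtx3l rose in all 4 comparisons.

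**Figure D5:**
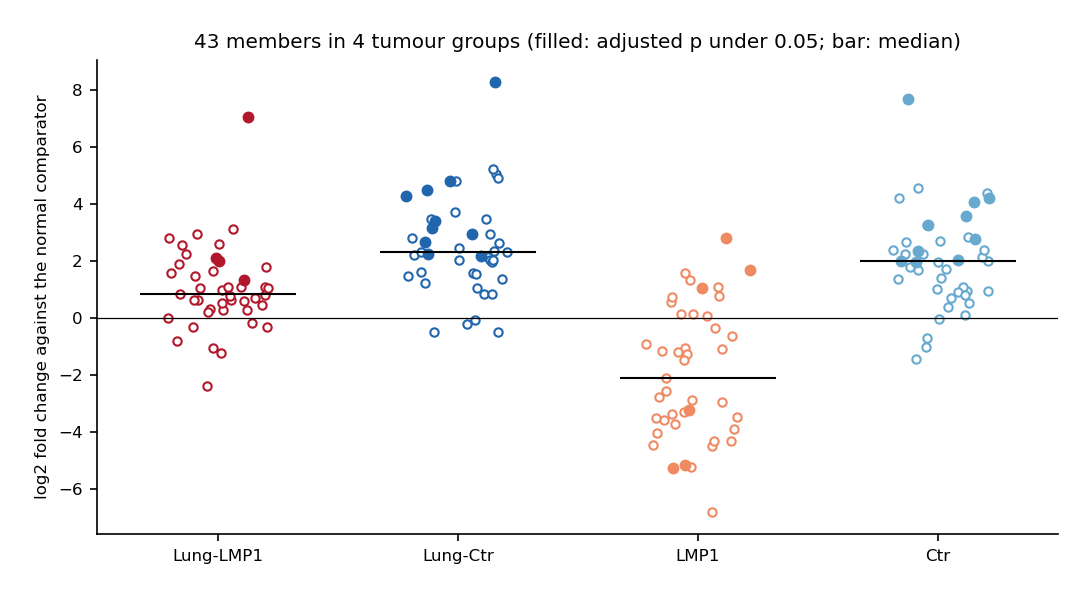
Log2 fold change of each member against the normal comparator (vertical axis) in the 4 tumour groups; filled points passed an adjusted p of 0.05 and bars are medians. The medians are 0.85, 2.33, -2.11 and 2.01 in Lung-LMP1, Lung-Ctr, LMP1 and Ctr, and LMP1 is the one group with filled points on both sides of 0.

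Trim25 was at 163 CPM or more in every tumour library, against 61.7, 106 and 73.8 CPM in the comparator. Its log2 fold change was 1.35 in Lung-LMP1 (SE 0.25, edgeR adjusted p = 0.00406), 2.18 in Lung-Ctr (SE 0.27, 0.000653), 1.06 in LMP1 (SE 0.27, 0.0169) and 2.01 in Ctr (SE 0.25, 0.000395). Dtx3l was at 20.7 CPM or more in every tumour library, against 11.3, 6.75 and 5.77 CPM in the comparator. For this ligase the log2 fold change was 2.12, 3.42, 1.70 and 3.29 in the same order of groups. Oas2 had 0.362, 0.397 and 0.180 CPM in the comparator, so the sizes of its changes (7.07 in Lung-LMP1, 8.31 in Lung-Ctr and 7.71 in Ctr) rest on few comparator counts.

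Ddx58 was above every comparator library (21.5, 22.4 and 19.97 CPM) in all libraries of Lung-LMP1, Lung-Ctr and Ctr, and below them in both LMP1 libraries. Its log2 fold change was 2.02 in Lung-LMP1 (SE 0.60, edgeR adjusted p = 0.0277), 3.16 in Lung-Ctr (SE 0.66, edgeR adjusted p = 0.00697) and 2.35 in Ctr (SE 0.61, edgeR adjusted p = 0.0132). The other members of the shared list, Phf11d, Parp14, Cmpk2, Parp9, Ifit2 and Usp18, had log2 fold changes of 2.26 to 4.83 in Lung-Ctr and of 1.99 to 4.22 in Ctr.

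The 3 members that fell in LMP1 against the comparator were Isg20, Ifit1 and Oas1a. Isg20, an exonuclease that degrades RNA, had 3.27 and 2.71 CPM in LMP1, against 29.7, 28.6 and 21.6 in the comparator (-3.20, SE 0.86, edgeR adjusted p = 0.0209). Ifit1 had 0.387 and 0 CPM in LMP1, against 5.01, 12.9 and 5.53 in the comparator (-5.24, SE 1.65, edgeR adjusted p = 0.0377). Oas1a, a synthase, had 0.111 and 0.474 CPM in LMP1, against 6.28, 17.8 and 5.53 (-5.14, SE 1.71, edgeR adjusted p = 0.0450). Gbp2 rose, with 8.69 and 10.5 CPM in LMP1, against 0.784, 2.72 and 0.421 (2.81, SE 0.89, edgeR adjusted p = 0.0383).

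These counts also moved with single libraries. For Lung-Ctr the count was 18 without Lung-LMP1 replicate 2, 3 without Lung-Ctr replicate 1, 6 without comparator replicate 1 and 5 without comparator replicate 3. For Ctr it was 6 without Ctr replicate 1, 5 without Ctr replicate 2, 6 without comparator replicate 1 and 3 without comparator replicate 3. For LMP1 it was 0 without either LMP1 library, 3 without comparator replicate 2 and 2 without comparator replicate 3, and for Lung-LMP1 it was 1 without comparator replicate 3. Comparator replicate 2 was higher than replicate 1 for 34 members, with a median ratio of 2.27; Oasl1 had 81.8 CPM there, against 1.03 and 1.20 in the others. Immune markers summed to 7.86 to 41.4 CPM in the tumour libraries, against 74.9 to 299.5 CPM in the comparator, mostly Cd68 or Lyz2. Epithelial markers summed to 4974 to 5303 CPM in Lung-LMP1, 4578 to 5492 in Lung-Ctr, 887 to 1335 in LMP1 and 2467 to 4652 in Ctr, against 5550 to 17860 in the comparator, and 0, 1, 6 and 2 of 7 fell in these groups. Lung markers summed to 0.677 to 2.66 CPM in the tumour libraries, against 43.6 to 189 CPM in the comparator, and the 3 tested fell in all 4 groups. The part of these lists in the differences was not tested.

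Normal_nasopha against Normal_lung compares the members in untreated organoids of the 2 organs. The table of 51912 entries holds all 43 members, of which Oas2 did not pass the low-count filter. Isg20 and Ifitm3 rose in Normal_nasopha, and Ddx58, Irf1, Lgals3bp, Parp14, Ifit3, Ifit2 and Usp18 fell, 2 and 7 of 42, against 15.4% and 15.6% of 15886 genes. The median log2 fold change was -1.09. Ddx58 had 20.3, 21.0 and 18.8 CPM in Normal_nasopha, against 42.1, 69.7 and 49.0 in Normal_lung (-1.56, SE 0.22, edgeR adjusted p = 0.00262). Ifitm3, which blocks virus entry, had 192, 73.4 and 285 CPM in Normal_nasopha, against 18.7, 54.5 and 13.8 in Normal_lung (2.53, SE 0.65, edgeR adjusted p = 0.0258). Both genes had separate ranges.

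Irf1 had 29.7, 19.3 and 24.8 CPM in Normal_nasopha, against 42.95, 63.3 and 47.8 in Normal_lung (-1.21, SE 0.23, edgeR adjusted p = 0.00803). Lgals3bp had 29.0, 37.0 and 27.8 CPM in Normal_nasopha, against 72.9, 191 and 71.9 in Normal_lung (-1.97, SE 0.40, edgeR adjusted p = 0.0109). Parp14 had 16.01, 13.02 and 8.83 CPM in Normal_nasopha, against 29.9, 84.5 and 33.5 in Normal_lung (-2.10, SE 0.44, edgeR adjusted p = 0.0124). In each of these genes every nasopharynx library lay below every lung library. Isg20 ran the other way, with 28.0, 27.0 and 19.8 CPM in Normal_nasopha, against 11.6, 10.6 and 10.9 in Normal_lung (1.02, SE 0.23, edgeR adjusted p = 0.0158).

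Ifit3 had 1.64, 7.45 and 1.26 CPM in Normal_nasopha, against 23.6, 115 and 26.6 in Normal_lung (-4.10, SE 0.95, edgeR adjusted p = 0.0175). Ifit2 had 3.24, 4.19 and 1.21 CPM in Normal_nasopha, against 10.4, 39.6 and 8.74 in Normal_lung (-2.88, SE 0.73, edgeR adjusted p = 0.0237). Usp18 had 1.84, 4.88 and 1.26 CPM in Normal_nasopha, against 8.14, 25.5 and 6.95 in Normal_lung (-2.46, SE 0.71, edgeR adjusted p = 0.0378). All 3 genes had separate ranges. A single library again stood above its group: 42 of 43 members were highest in Normal_lung replicate 2, with a median ratio of 3.03 over replicate 1. In Normal_nasopha 33 of 43 were highest in replicate 2. That library matches comparator replicate 2, described above, so it is not counted as a further case. Without Normal_nasopha replicate 2 the calls were 2 higher and 15 lower.

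The lung marker Sftpc was at 121.9, 28.7 and 26.4 CPM in Normal_nasopha and at 37317 CPM or more in Normal_lung, so the labelled tissues differ as named. Immune markers summed to 64.1 to 273.5 CPM in Normal_nasopha, against 1673, 2954 and 2552 CPM in Normal_lung, mostly Lyz2, which alveolar epithelium also expresses. Fibroblast markers summed to 4.23 to 13.4 CPM in Normal_nasopha, against 80.9 to 469.9 CPM in Normal_lung. Normal_lung replicate 2 had the highest sum of both. Their part in the difference was not tested. Of 42 tested genes of the other induced list, 17 fell and 1 rose in Normal_nasopha, and those of smallest adjusted p were Parp12, Uba7, which activates ISG15, Iigp1, Ifi47 and Ciita, all lower. Of the receptor and signalling genes, those of smallest adjusted p were Il10rb, Socs3, Pias1 and Ifnlr1, all lower.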

How the data were processed

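Polyadenylated RNA of 16 organoid libraries was sequenced. The submitters' processing notes name STAR, DESeq, DESeq2 and the mm10 build, without versions; the counting tool and annotation were not given in the sources used here. Deposited files are 6 tables of unnormalized counts for each gene, per the file headers. The columns of the 10 tumour libraries appear more than once, with identical values in all 13 repeats. Their deposited log2 fold changes and their deposited p-values were used only where the text names the authors' deposited table, and 32 columns of scaled values were not used. The quasi-likelihood F test of edgeR 4.0.16 (R 4.3.3) was applied after its low-count filter and TMM scaling, in fits of 10, 13 and 6 libraries, and p-values were adjusted by Benjamini-Hochberg over all genes tested at a threshold of 0.05. CPM used total counts, and log2 values a pseudocount of 0.5. Alternatives were DESeq2 1.42.0, other scalings, no filter, other designs, a replicate block and leaving out each library. Members and lists were chosen with earlier results of these data known. Values in every library are given for up to 8 called members per comparison, or, with fewer than 3 called, for the 3 of largest log2 fold change whose mean log2 CPM reached 3. Genes of other lists are named up to 5 per comparison; Isg15, Oas2, Irf1, Gbp2, Ifit3b and Tdrd7 were named after their values were seen. The fits were tested on simulated data. Of 100 genes changed 4-fold, 50 were recovered for Lung-LMP1 against Lung-Ctr and 19 for the interaction. Of 100 changed 16-fold, 98 and 93 were recovered. The simulation gave all genes 1 common spread, whereas most members vary more than most genes, so these shares need not hold for them. Intervals and floors cover counting error only.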

Additional observations from a re-analysis of the deposited data

Results flagged for a closer look

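The 5 libraries of each genotype were searched for 1 library far from the other 4, with Dixon's test of the gap over the range (critical value 0.71 for 5 libraries). For normally distributed values chance marks about 1 in 20 such sets. The members were searched as CPM, and each set joins libraries with and without the prefix, so that rate need not hold here. Of 88 sets, made of the 43 members and their mean in both genotypes, 34 were marked, 33 of them in TMPL, and since members move together these are not independent. In each TMPL set it was Lung-LMP1 replicate 2 that lay above the other 4 libraries. The mean log2 level of the members was 5.28 there, with 2.74 as the nearest other TMPL value. Among the RNA sensors this library had 175 CPM of Ddx58, 66.5 CPM of Ifih1, 27.7 CPM of Dhx58 and 2.51 CPM of Zbp1. Among the transcription factors this library had 56.1 CPM of Irf7, 67.9 CPM of Irf9 and 78.9 CPM of Stat2. In the Oas family this library had 48.5 CPM of Oas1a, 123 CPM of Oas2, 94.1 CPM of Oas3 and 127 CPM of Oasl2. Among the modification genes this library had 16.8 CPM of Isg15, 44.0 CPM of Usp18, 7.22 CPM of Trim30a, 59.2 CPM of Dtx3l, 60.4 CPM of Parp9 and 110.4 CPM of Parp14. Among the GTPases this library had 42.6 CPM of Mx1, 8.32 CPM of Mx2 and 20.1 CPM of Gbp3. Among the other antiviral effectors this library had 35.8 CPM of Rsad2, 24.3 CPM of Cmpk2, 29.2 CPM of Isg20, 132 CPM of Eif2ak2, 575 CPM of Ifitm3 and 24.5 CPM of Samd9l. In the last group this library had 84.6 CPM of Ifi44, 27.2 CPM of Xaf1, 54.4 CPM of Rtp4, 64.9 CPM of Phf11d, 154 CPM of Lgals3bp and 20.3 CPM of Sp100. In TMP, Irf9 was lowest in Ctr replicate 3, at 15.2 CPM, with 58.2 CPM as the nearest other value. The labels record nothing that sets these libraries apart from their groups.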

How the results depend on the processing

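Each value here is the number of members called, without the share of all genes called under the same alternative. A larger count is therefore not set against a background. DESeq2 gave 24 for LMP1 against Ctr, 2 for Lung-LMP1 against Lung-Ctr, 26 for TMPL against TMP, 16 for Lung-LMP1 against LMP1, 2 for the interaction, 17, 20 and 7 for LMP1, Lung-Ctr and Lung-LMP1 against the comparator and 20 for Normal_nasopha against Normal_lung, where edgeR gave 6, 0, 3, 2, 0, 6, 10, 4 and 9. With no filter on low counts it was 2 for LMP1 against Ctr, 1 for TMPL against TMP, 0 for Lung-LMP1 against LMP1 and 3 for LMP1 against the comparator. The length and GC correction, or no term for the prefix, each left 1 for TMPL against TMP. With only the 2 groups compared it was 5 for Lung-LMP1 against LMP1, and 5 and 2 for Lung-Ctr and Lung-LMP1 against the comparator. Total-count scaling, chosen after seeing the data, gave 1 for Lung-LMP1 against LMP1. The causes were not tested.

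The labels link same-numbered libraries by nothing but the number, and whether they shared a batch cannot be told from them. Over all genes the deviations of same-numbered libraries correlated at -0.38, 0.16 and 0.139 for Ctr and Lung-LMP1. For Normal_nasopha and Normal_lung the values were -0.195, -0.088 and -0.102. Over the members alone the correlations were -0.0793, 0.744 and 0.83 for Ctr and Lung-LMP1, and 0.392, 0.496 and 0.411 for the normal groups. With a replicate block the counts were 12 for LMP1 against Ctr, 10 for LMP1 against the comparator and 16 for Normal_nasopha against Normal_lung, and stayed within 1.5 times elsewhere.

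Leaving out 1 library at a time gave 0 to 16 for LMP1 against Ctr, 0 to 30 for TMPL against TMP, 0 to 5 for Lung-LMP1 against LMP1 and 0 to 1 for the interaction. Against the comparator it gave 3 to 14 for Ctr, 0 to 9 for LMP1, 3 to 18 for Lung-Ctr and 1 to 6 for Lung-LMP1, and 6 to 17 for Normal_nasopha against Normal_lung. It was 0 throughout for Lung-LMP1 against Lung-Ctr and for Lung-Ctr against Ctr. Where an arm kept 1 library, it was assumed to vary like the other groups. Of 888 values of single called members under an alternative, 687 kept their side of the threshold, 201 lost it and 0 changed direction. With 2 or 3 libraries per group, the low counts of members in LMP1 limit the size of their fold changes.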
